A study of Mus musculus with 17 samples.

Results

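The genes of the proteasome, the protease complex that degrades ubiquitin-tagged proteins, were followed through mouse CD8 T cells of 4 kinds. Members were taken by symbol: every gene on the array whose symbol begins with Psma, Psmb, Psmc, Psmd, Psme, Psmf or Psmg followed by a digit. This gave 49 symbols on 86 probes, of 19057 genes with a named probe. Of these, 47 are genes of the proteasome, its activators and its assembly chaperones, and 2, Psmc3ip and Psme3ip1, carry the name of a subunit they bind and are given apart. Each gene is represented by its probe with the highest mean non-normalized signal. Of the 47, 41 were above background on at least 3 of 17 arrays and were tested among 10569 genes. Psma1, Psma3, Psma6, Psmb11, Psmd3 and Psmg4 were not. The inhibitor Psmf1 was not analysed here.

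All 4 kinds of cell were OT-I cells on a C57Bl/6 background, from mice aged 2 to 6 months, so every group carries the same transgenic T-cell receptor, which recognises an ovalbumin peptide. Tpm, the partial memory cells that the series is named for, had been primed by liver sinusoidal endothelial cells (LSEC) in coculture (n = 4). Teff were effector cells activated by dendritic cells (n = 5), and the source label of Teff 8 names the spleen where the others name the coculture. Memory cells were isolated from spleen 3 months after infection with Listeria monocytogenes carrying OVA (n = 3), and naive cells were isolated from spleen (n = 5). The comparisons ask how Tpm stand to naive, effector and memory cells. The labels do not tell whether samples of a group were separate animals or cultures, and p-values then cover only the spread between these samples, which may be technical.

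The proteasome core, called 20S, is a barrel of alpha rings that gate it and beta rings that cut protein chains. The 19S cap recognises ubiquitin chains and unfolds the substrate with a ring of ATPases, and chaperones assemble both parts. Under interferon-gamma the cutting subunits Psmb5, Psmb6 and Psmb7 are replaced during assembly by Psmb8, Psmb9 and Psmb10, which makes the immunoproteasome, and the activator PA28, built from Psme1 and Psme2, can take the place of the cap. Lymphocytes are known to carry immunoproteasomes, whose products feed antigen presentation on MHC class I.

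Promoters of 5 of these genes are shown because the comparisons turn on them: the 3 immunoproteasome subunits and a pair of the subunits they replace. Each is the window from 250 bases before to 50 bases after the annotated start, 5′ to 3′ on the gene's strand, from RefSeq on GRCm38.p6. Capitals mark a match to 1 of 2 motifs searched on both strands: TTCNNNGAA, the interferon-gamma activated sequence (GAS), and TGACNNNGC, the antioxidant response element (ARE) that Nfe2l1 and Nfe2l2 bind.
Psmb8, chr17:34197945-34198244, plus strand: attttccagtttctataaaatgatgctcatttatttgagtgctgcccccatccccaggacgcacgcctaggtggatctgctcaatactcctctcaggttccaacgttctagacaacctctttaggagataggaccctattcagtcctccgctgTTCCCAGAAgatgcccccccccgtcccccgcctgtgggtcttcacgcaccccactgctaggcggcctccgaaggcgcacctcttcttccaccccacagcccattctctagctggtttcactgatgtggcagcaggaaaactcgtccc
Psmb9, chr17:34187281-34187580, minus strand: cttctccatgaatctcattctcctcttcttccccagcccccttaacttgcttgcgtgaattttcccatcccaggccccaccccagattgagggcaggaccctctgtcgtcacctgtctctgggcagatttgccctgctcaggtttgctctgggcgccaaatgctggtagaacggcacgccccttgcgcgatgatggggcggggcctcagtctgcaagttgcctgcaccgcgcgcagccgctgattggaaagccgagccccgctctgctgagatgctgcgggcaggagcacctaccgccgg
Psmb10, chr8:105938343-105938642, minus strand: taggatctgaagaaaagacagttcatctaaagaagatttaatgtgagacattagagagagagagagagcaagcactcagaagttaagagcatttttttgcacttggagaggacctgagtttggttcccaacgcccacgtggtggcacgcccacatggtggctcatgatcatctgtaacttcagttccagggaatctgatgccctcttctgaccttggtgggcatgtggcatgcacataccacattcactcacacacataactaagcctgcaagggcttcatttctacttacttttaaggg
Psmb5, chr14:54617946-54618245, minus strand: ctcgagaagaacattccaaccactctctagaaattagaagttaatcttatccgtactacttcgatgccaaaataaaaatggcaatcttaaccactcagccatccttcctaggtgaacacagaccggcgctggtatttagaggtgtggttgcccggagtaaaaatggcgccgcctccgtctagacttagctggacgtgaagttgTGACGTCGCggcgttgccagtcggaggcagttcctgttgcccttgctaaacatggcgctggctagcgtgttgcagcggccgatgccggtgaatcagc
Psmb6, chr11:70525107-70525406, plus strand: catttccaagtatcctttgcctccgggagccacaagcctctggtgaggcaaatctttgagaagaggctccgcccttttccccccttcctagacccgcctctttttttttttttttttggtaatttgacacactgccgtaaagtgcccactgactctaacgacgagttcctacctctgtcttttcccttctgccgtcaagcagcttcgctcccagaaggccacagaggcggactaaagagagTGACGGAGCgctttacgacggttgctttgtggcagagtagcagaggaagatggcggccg
The Psmb8 window held the GAS letters TTCCCAGAA from 97 bases before the start. In the Psmb5 and Psmb6 windows the ARE letters began 47 and 9 bases before the start. The windows of Psmb9 and Psmb10 held neither motif. Psmb9 and the peptide transporter gene Tap1 are read in opposite directions from starts 226 bases apart, and their windows share 275 bases.

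Promoters were on hand for 39 of the 47 proteasome genes, in 42 windows. GAS letters were in 3 of the 42 windows (7.14%), against 8.3% of 32851 mouse promoter windows of this length. The ARE letters were in 6 (14.3%), against 12.4% of all windows. A match says only that these letters are in the window.

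RNA was measured on 17 arrays, 1 per sample, and values below are log2 of the background-corrected, quantile-normalized intensity plus 16 unless another scale is named. Differences are on that scale, which understates the change of dim genes. Mean signal per array lay between 227 and 471, except for memory 3 (140) and memory 5 (96.7), and memory 5 had 20.1% of its probes above background. The number of arrays limits the precision, and several calls with memory cells below depend on these dim arrays. The T-cell genes Cd3d, Cd3e, Cd3g, Cd8b1 and Thy1 were bright on every array, while the single Cd8a probe stayed near background. Linear intensities of the 9 CD8 T-cell markers with a probe summed to 62103 to 67795 in Tpm and 39744 to 50959 in Teff. They summed to 61720 to 68742 in memory and 54538 to 61425 in naive arrays. Of 8 tested, 4 were lower and 0 higher in Teff than in naive cells, against 19.9% and 23.1% of all genes. In Tpm, 2 were higher and 1 lower than in naive cells, against 16.6% and 9.46%.

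Markers of other cells moved with the groups, and their part in the results was not tested. Of 17 tested markers of liver sinusoidal endothelium, 12 were higher in Tpm than in naive cells and 11 were higher in Tpm than in Teff, with 1 lower, where 16.6% and 15.8% of all genes were higher. Their summed intensity on the linear scale was 4890 to 8067 in Tpm, 1172 to 1665 in Teff, 2057 to 3085 in memory and 315 to 802 in naive arrays. Stromal markers summed to 1613 to 2507 in Tpm and to at most 83.1 in Teff, 453 in memory and 55.8 in naive arrays, and none of the 10 was above background on a naive array. Erythroid markers, all 5 lower in Tpm and in Teff than in naive cells, summed to 17.0 to 32.0 in Tpm, 14.7 to 26.3 in Teff, 5896 to 15160 in memory and 6016 to 35213 in naive arrays. Tpm 14 stood apart in markers of myeloid cells: dendritic cell markers summed to 7798 on it and to 469 to 520 on the other Tpm arrays, 1891 to 3060 in Teff, 449 to 2406 in memory and 356 to 2830 in naive arrays. Macrophage markers summed to 3837 on Tpm 14, 112 to 247 on the other Tpm arrays, 43.5 to 63.3 in Teff, 120 to 418 in memory and 116 to 976 in naive arrays. Cd74, H2-Ab1 and Lyz2 were the brightest of these on Tpm 14 (11.71, 11.60 and 10.92), while Itgax, Xcr1 and Clec9a were near background there. Without Tpm 14, 12 of the proteasome genes were higher in Tpm than in naive cells, against 14 with it, Psmb9 differed between these groups by 1.30 and Psmb10 differed between Tpm and Teff by 1.42. For any bulk value below, fewer cells of a type and less RNA per cell cannot be told apart.

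Many proteasome genes were higher in the activated cells, Tpm and Teff, than in naive cells, and nearly none was lower. In Tpm, 14 of 41 were higher than in naive cells and none lower at an adjusted p under 0.05 (limma, Benjamini-Hochberg over 10569 genes), against 16.6% of all genes tested called higher and 9.46% called lower. The median difference of the 41 was 0.39, against 0.06 over all genes. In Teff, 21 of 41 were higher than in naive cells and 1, Psmb10, was lower, against 23.1% and 19.9% of all genes, and the median of the 41 was 0.54 against 0.00. With median scaling in place of quantile normalization, 10 were higher in Tpm and 16 in Teff, against 1610 and 2218 of the 10569 genes. Without background correction 18 and 23 were higher, against 1785 and 2440. The same naive arrays stand in both comparisons. By their labels Tpm and Teff came from coculture, except Teff 8, and naive cells from spleen. Activation and culture therefore cannot be told apart in either comparison.

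Few of these genes were called between memory and naive cells. Psmb9, Psmb10 and Psmg3 were higher in memory than in naive cells and Psmd8 was lower, against 9.74% of all genes called higher and 11.8% called lower. The median difference of the 41 was 0.06 against -0.05 over all genes. This comparison depends on how the 2 dim memory arrays are brought to a common scale: with median scaling in place of quantile normalization, none was higher and 9 were lower, and the median of the 41 was -0.37. Under that scaling 32.9% of all calls between memory and naive cells were of higher genes, against 45.3% with quantile normalization.

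Few were called between the 2 kinds of activated cell. Between Tpm and Teff, 2 of 41 were higher in Tpm (Psmb10 and Psmd7) and 1 was lower (Psmg1), against 15.8% and 13.6% of all genes. Between Tpm and memory cells, 9 were higher in Tpm and none lower, against 16.1% and 8.51% of all genes. With median scaling that count was 22, and of all calls 75.5% were of genes higher in Tpm, against 65.5%. Between memory cells and Teff, 1 of 41 was higher in memory (Psmb10) and 17 were lower, against 17.5% and 23.5% of all genes, and 10 were lower without memory 3 and memory 5.

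**Figure D1:**
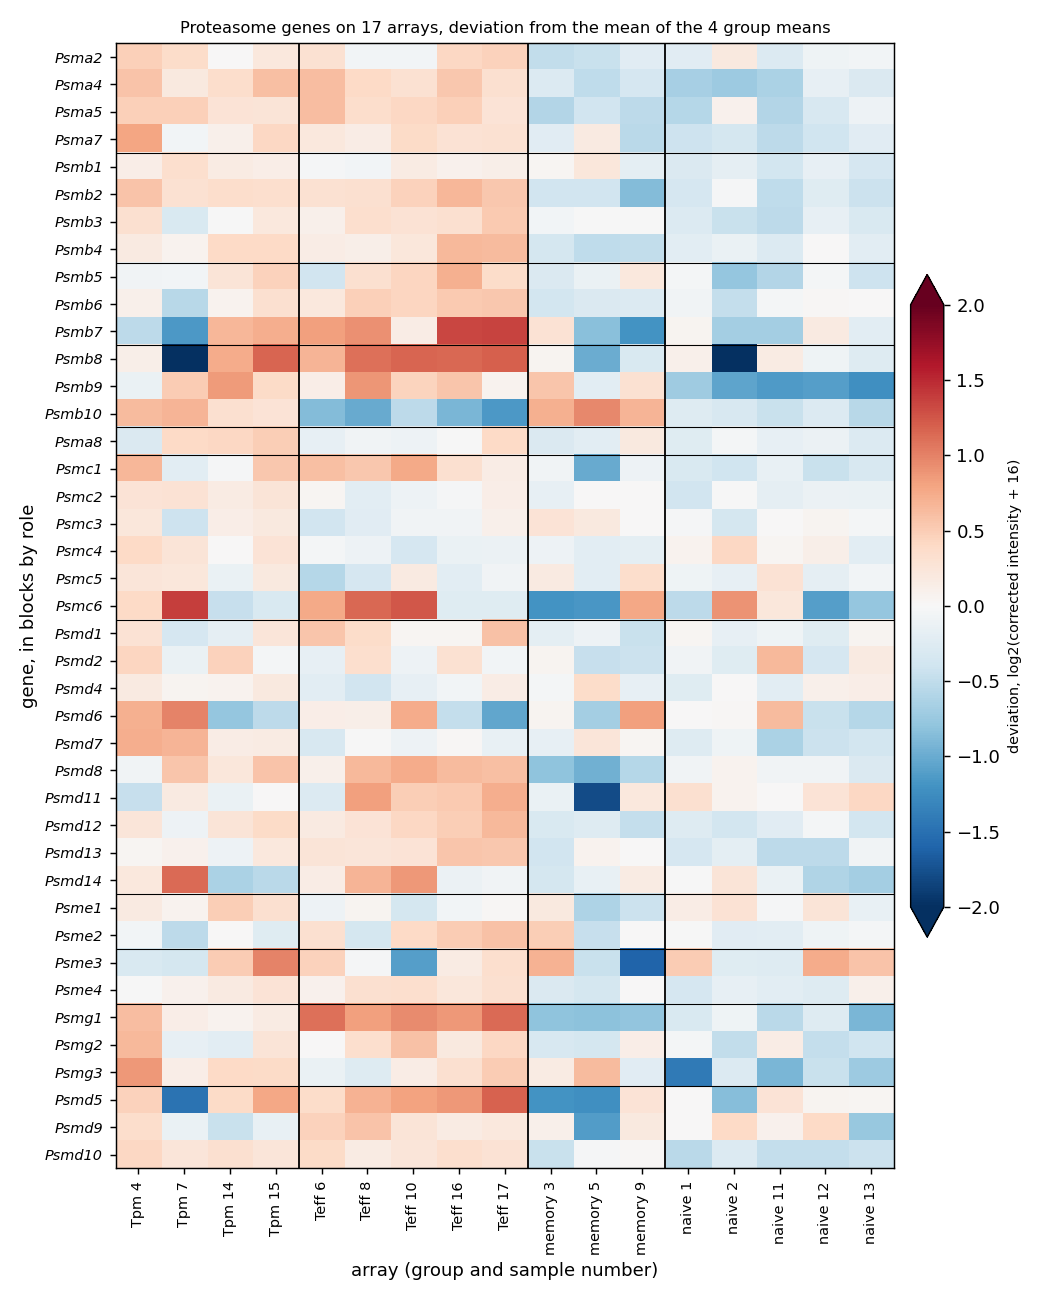
Each row is 1 of the 41 tested proteasome genes, in blocks by role, and each column is 1 array. Colour is the deviation of the array's log2 value from the mean of the gene's 4 group means, red above and blue below, with colours ending at 2 either way. The Psma4 and Psmg1 rows are red on all Tpm and Teff arrays and blue on all memory and naive arrays, and the Psmb10 row is red in Tpm and memory and blue in Teff.

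Apart from the constitutive genes, the 5 immunoproteasome and PA28 genes did not move as a block. Psmb9 was higher in all 3 antigen-experienced groups than in naive cells, Psmb10 was higher in Tpm and memory cells but lower in Teff, Psmb8 was called in Teff alone, and Psme1 was called in no comparison. By count, 2 of the 5 were higher in Tpm than in naive cells and none lower, 2 were higher and 1 lower in Teff, and 2 were higher in memory cells. Among the other 36 tested genes, 12 were higher in Tpm than in naive cells, 19 in Teff and 1 in memory cells, where 1 was lower. For comparison, the share of the 10569 genes called higher was 16.6% for Tpm, 23.1% for Teff and 9.74% for memory cells. The share called lower was 9.46%, 19.9% and 11.8%, in that order.

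Psmb9 (LMP2) is the immunoproteasome subunit that takes the place of Psmb6. It had 10.95, 11.59, 11.94 and 11.47 on the 4 Tpm arrays, 11.22, 11.96, 11.52, 11.63 and 11.16 on the 5 Teff arrays, 11.64, 10.88 and 11.38 on the 3 memory arrays and 10.38, 10.03, 9.94, 9.98 and 9.85 on the 5 naive arrays. Every Tpm, Teff and memory array lay above the highest naive array, and the 3 antigen-experienced groups overlapped each other. Tpm exceeded naive cells by 1.45 (SE 0.22, 2.73-fold, adjusted p = 9.01e-05 by limma). Teff exceeded naive cells by 1.46 (SE 0.21, adjusted p = 1.58e-05), and memory cells exceeded them by 1.26 (SE 0.24, adjusted p = 0.000944). Median scaling left the memory difference at 0.70 with an adjusted p of 0.0523. Between Tpm and Teff the difference was -0.01 with a 95% interval of -0.47 to 0.45. The Tpm difference from naive cells was 1.79 in sample numbers 12 to 17 and 1.15 in numbers 1 to 11.

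Psmb10 (MECL-1), which takes the place of Psmb7, separated Tpm from Teff. It had 11.19, 11.24, 10.88 and 10.83 on the Tpm arrays, 9.70, 9.56, 10.05, 9.65 and 9.41 on the Teff arrays, 11.27, 11.52 and 11.25 on the memory arrays and 10.31, 10.24, 10.11, 10.30 and 10.01 on the naive arrays. All Tpm and memory arrays lay above all naive arrays, and 4 of 5 Teff arrays lay below the lowest naive array, with Teff 10 among the naive values. Tpm were higher than Teff by 1.37 (SE 0.15, 2.58-fold, adjusted p = 3.57e-06 by limma) and higher than naive cells by 0.84 (SE 0.15, adjusted p = 0.000554). Teff fell by 0.52 relative to naive cells (SE 0.15, adjusted p = 0.00702).

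Memory cells exceeded Teff in Psmb10 by 1.67 (SE 0.17, adjusted p = 3.90e-07 by limma) and naive cells by 1.15 (SE 0.17, adjusted p = 9.03e-05). With median scaling the memory difference from naive cells was 0.61 with an adjusted p of 0.0693. Between Tpm and memory cells it was -0.31 (95% interval -0.68 to 0.06, adjusted p = 0.223). The second Psmb10 probe, which was not tested, gave 1.30 between Tpm and Teff, 0.88 between Tpm and naive cells and -0.42 between Teff and naive cells. The difference between Tpm and Teff was 1.33 in sample numbers 12 to 17 and 1.45 in numbers 1 to 11. On the tested probe all 3 memory arrays were above the highest Tpm array, memory 9 only just (11.25 against 11.24). On the second probe memory 9 (10.31) was below every Tpm array (10.44 to 10.66).

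Psmb8 (LMP7), which takes the place of Psmb5, varied widely within Tpm and within naive cells. It had 8.97, 6.29, 9.59 and 10.02 on the Tpm arrays, 9.54, 9.95, 10.02, 10.01 and 10.06 on the Teff arrays, 8.92, 7.86 and 8.55 on the memory arrays and 8.96, 6.40, 9.02, 8.77 and 8.59 on the naive arrays. The Teff values lay within 1 log2 unit, while Tpm 7 and naive 2 lay at least 2 log2 units below the other arrays of their groups. Relative to naive cells, Teff were higher by 1.57 (SE 0.58, adjusted p = 0.0370 by limma), and the call rests on single arrays. Without naive 2 the difference was 1.07, adjusted p = 0.114, and without any 1 of Teff 8, 10, 16 or 17 it stayed between 1.53 and 1.56 with adjusted p between 0.0606 and 0.0667. With no filter on dim probes the adjusted p was 0.0820. Tpm differed from naive cells by 0.37 (95% interval -0.93 to 1.67, adjusted p = 0.730), an interval too wide to place Tpm on either side. Within sample numbers that difference was 1.13 in sample numbers 12 to 17 and -0.50 in numbers 1 to 11.

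The second Psmb8 probe did not show the low arrays to the same degree. It had 7.11, 6.62, 7.67 and 8.10 on the Tpm arrays, 7.08, 7.93, 7.43, 7.97 and 7.68 on the Teff arrays, 8.10, 8.10 and 7.37 on the memory arrays and 6.96, 6.01, 7.20, 6.90 and 6.00 on the naive arrays. Its differences, not tested, were 0.76 between Tpm and naive cells, 1.01 between Teff and naive cells and 1.24 between memory and naive cells. For memory cells the brighter probe gave 0.09, so the probes of this gene disagree there.

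**Figure D2:**
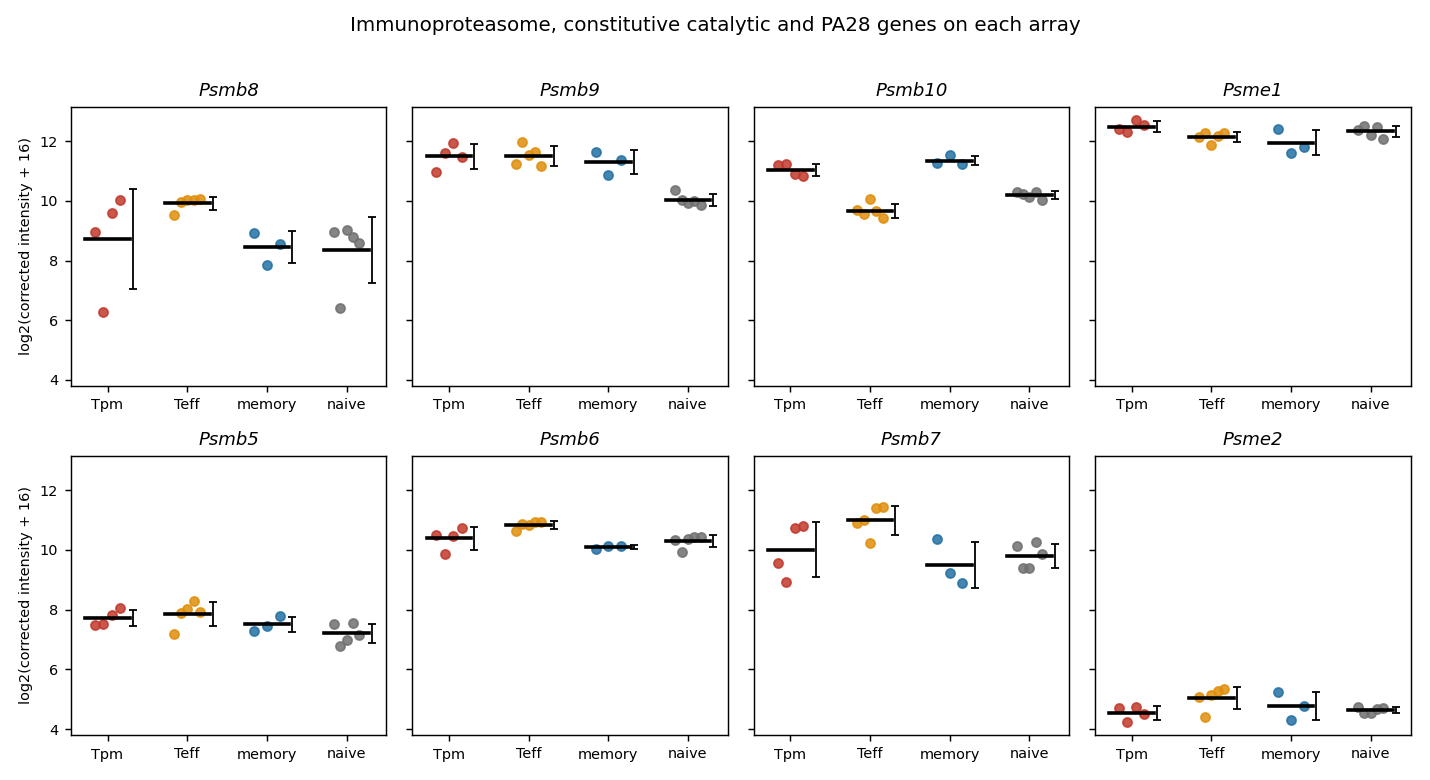
Points are arrays, bars are group means and error bars are 1 SD, on the scale of log2 of corrected intensity plus 16, with groups from left to right Tpm (n = 4), Teff (n = 5), memory (n = 3) and naive (n = 5). Psmb9 is low in naive arrays, Psmb10 is low in Teff arrays, Psmb8 has 1 low Tpm and 1 low naive array, and Psme2 sits near background in every group.

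Of the PA28 genes, only Psme1 was bright enough to compare, and it was called in no comparison of the main fit. Psme1, the alpha subunit, had 12.41, 12.29, 12.72 and 12.54 on the Tpm arrays, 12.13, 12.29, 11.87, 12.16 and 12.26 on the Teff arrays, 12.42, 11.61 and 11.80 on the memory arrays and 12.37, 12.52, 12.20, 12.48 and 12.07 on the naive arrays. Its values overlapped between Tpm and naive arrays, where the difference was 0.16 (95% interval -0.21 to 0.53, adjusted p = 0.572 by limma). Memory cells differed from naive cells by -0.38 (adjusted p = 0.168), without memory 3 by -0.62, adjusted p = 0.0247, and with median scaling by -0.86, adjusted p = 0.0168. Tpm differed from memory cells by 0.55 (adjusted p = 0.0544), and the difference passed the test without memory 3 (0.78, adjusted p = 0.00746), without Tpm 7 (0.61, adjusted p = 0.0473) and with median scaling (1.01, adjusted p = 0.00712). The one Psme2 probe was above background on 6 arrays (0 of 4 Tpm, 4 of 5 Teff, 1 of 3 memory and 1 of 5 naive), so it bounds the beta subunit and does not measure it. It passed the filter through the Teff arrays, and no test is given, though the gene is among the 5 and the 41 genes counted above.

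The constitutive catalytic subunits, which the immunoproteasome subunits displace, were all higher in Teff than in naive cells, where 23.1% of all genes were higher. None was called between Tpm or memory cells and naive cells, except that median scaling gave -0.75, adjusted p = 0.0138 for Psmb6 between memory and naive cells, against -0.20 (adjusted p = 0.501). Psmb5, with chymotrypsin-like activity, had 7.50, 7.51, 7.83 and 8.04 on the Tpm arrays, 7.19, 7.89, 8.01, 8.28 and 7.93 on the Teff arrays, 7.29, 7.44 and 7.79 on the memory arrays and 7.53, 6.79, 6.98, 7.54 and 7.15 on the naive arrays. The groups overlapped, and relative to naive cells, Teff were higher by 0.66 (SE 0.21, adjusted p = 0.0161 by limma), or without Teff 16 by 0.55, adjusted p = 0.0513. Tpm differed from naive cells by 0.52 (adjusted p = 0.0971).

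Psmb6, with caspase-like activity, had 10.50, 9.85, 10.47 and 10.72 on the Tpm arrays, 10.62, 10.87, 10.83, 10.92 and 10.94 on the Teff arrays, 10.03, 10.12 and 10.13 on the memory arrays and 10.33, 9.93, 10.36, 10.42 and 10.42 on the naive arrays. Every Teff array lay above every memory and naive array. Teff exceeded naive cells by 0.55 (SE 0.16, adjusted p = 0.0104 by limma), with median scaling by 0.42, adjusted p = 0.0758. Tpm differed from naive cells by 0.09 (95% interval -0.27 to 0.45) and from Teff by -0.45 (adjusted p = 0.0556). That last difference passed the test without naive 2 (-0.45, adjusted p = 0.0461), without Teff 6 (-0.50, adjusted p = 0.0489) and without Tpm 15 (-0.56, adjusted p = 0.0268). It also passed with a term for sample numbers 12 to 17 (-0.48, adjusted p = 0.0237), without background correction (-0.43, adjusted p = 0.0266), with an offset of 50 (-0.44, adjusted p = 0.0311) and with the mean of kept probes (-0.48, adjusted p = 0.0258).

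Psmb7, with trypsin-like activity, had 9.55, 8.93, 10.73 and 10.80 on the Tpm arrays, 10.89, 10.99, 10.23, 11.40 and 11.43 on the Teff arrays, 10.37, 9.24 and 8.88 on the memory arrays and 10.13, 9.39, 9.39, 10.25 and 9.87 on the naive arrays. The Tpm arrays split, with Tpm 14 and 15 among the Teff values and Tpm 4 and 7 among the memory values. Teff exceeded naive cells by 1.18 (SE 0.37, adjusted p = 0.0143 by limma). Memory cells fell by 1.49 relative to Teff (adjusted p = 0.00887), and by 1.19 without memory 9 (adjusted p = 0.0558). Tpm differed from Teff by -0.99 (SE 0.39, adjusted p = 0.0673), and leaving out memory 3, Teff 10, Tpm 14 or Tpm 15 brought the adjusted p to between 0.0294 and 0.0475 with differences between -0.99 and -1.25. That difference also passed with median scaling (-0.92, adjusted p = 0.0498) and with the mean of kept probes (-1.04, adjusted p = 0.0314). The other Psmb7 probes, not tested, gave -1.12, -1.33 and -0.71. Over groups with both, arrays numbered 12 to 17 were higher in Psmb7 by 0.85 with the group in the fit, and with that term Tpm differed from Teff by -1.07, adjusted p = 0.0111.

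RNA of the catalytic pairs was followed as the immunoproteasome probe minus the probe of the subunit it replaces, on the same array. Such a difference shows unequal change in RNA, not which subunit is more abundant. Exchange of subunits in assembled proteasomes was not measured. The test was an exact permutation of arrays between groups, two-sided, adjusted by Benjamini-Hochberg over 12 comparisons. The smallest unadjusted p that the sizes allow is 0.00794, or 0.0179 with memory cells.

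Psmb9 over Psmb6 was higher in every antigen-experienced group than in naive cells. The difference was 0.45, 1.75, 1.46 and 0.75 on the Tpm arrays, 0.60, 1.08, 0.69, 0.71 and 0.22 on the Teff arrays, 1.61, 0.76 and 1.25 on the memory arrays and 0.04, 0.10, -0.41, -0.44 and -0.57 on the naive arrays. No Tpm, Teff or memory array fell among the naive values. Relative to naive cells it rose by 1.36 in Tpm (adjusted exact p = 0.0317), by 0.92 in Teff (adjusted exact p = 0.0317) and by 1.46 in memory cells (adjusted exact p = 0.0357). Between Tpm and Teff it differed by 0.44 (adjusted exact p = 0.254).

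Psmb10 over Psmb7 set Teff apart from the other groups. The difference was 1.64, 2.31, 0.15 and 0.03 on the Tpm arrays, -1.19, -1.44, -0.18, -1.76 and -2.02 on the Teff arrays, 0.90, 2.28 and 2.36 on the memory arrays and 0.18, 0.85, 0.73, 0.04 and 0.14 on the naive arrays. All 5 Teff arrays were below every other array. Tpm were above Teff by 2.35 (adjusted exact p = 0.0357), Teff fell by 1.71 relative to naive cells (adjusted exact p = 0.0317), and memory cells were above naive cells by 1.46 (adjusted exact p = 0.0357). Tpm were not separated from naive cells (0.65, adjusted exact p = 0.410).

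Psmb8 over Psmb5 was 1.47, -1.22, 1.76 and 1.99 on the Tpm arrays, 2.35, 2.06, 2.01, 1.73 and 2.13 on the Teff arrays, 1.63, 0.42 and 0.76 on the memory arrays and 1.43, -0.39, 2.04, 1.23 and 1.44 on the naive arrays. Tpm 7 and naive 2, the arrays low in Psmb8, were the lowest of all arrays. Teff exceeded naive cells by 0.91 (adjusted exact p = 0.0408), and the call was lost in 8 of 17 fits that left out 1 array, with 0.52 without naive 2 and adjusted exact p up to 0.0952. Tpm fell by 1.06 relative to Teff (adjusted exact p = 0.0476), a call lost in 12 of 17 such fits, with -0.31 without Tpm 7 (adjusted exact p = 0.214). Fewer arrays also raise the smallest p the test can give. Averaging the kept probes of each gene ended both calls, with -0.58 between Tpm and Teff (adjusted exact p = 0.171) and 0.63 between Teff and naive cells (adjusted exact p = 0.0952).

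**Figure D3:**
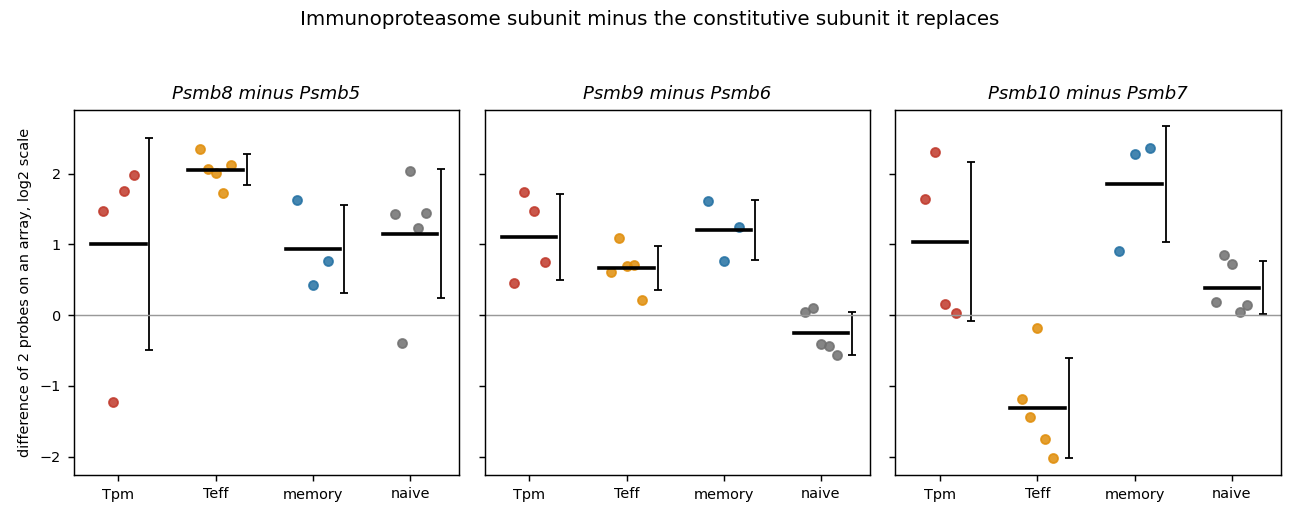
Each point is 1 array, placed at the log2 value of the immunoproteasome probe minus that of the constitutive probe it replaces, with group means as bars and 1 SD as error bars, and Tpm (n = 4), Teff (n = 5), memory (n = 3) and naive (n = 5) from left to right. For Psmb9 over Psmb6 the naive arrays are lowest, and for Psmb10 over Psmb7 the 5 Teff arrays are lowest.

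Most tested genes of the core's alpha ring and of the beta ring's part that does not cut were called higher in both activated groups. Of the 4 tested alpha-ring genes, Psma4, Psma5 and Psma7 were higher in Tpm than in naive cells and also in Teff than in naive cells, and Psma2 was not called in either (0.35 and 0.30), where 16.6% and 23.1% of all genes were higher. Psma4 had 11.96, 11.60, 11.75 and 12.00 on the Tpm arrays, 12.01, 11.81, 11.70, 11.93 and 11.72 on the Teff arrays, 11.13, 10.90 and 11.07 on the memory arrays and 10.73, 10.67, 10.77, 11.24 and 11.12 on the naive arrays. Tpm and Teff overlapped, and both lay above every memory and naive array. The difference was 0.92 between Tpm and naive cells (SE 0.16, adjusted p = 0.000241 by limma) and 0.93 between Teff and naive cells (adjusted p = 4.89e-05).

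Tpm were above memory cells in Psma4 by 0.80 (adjusted p = 0.00294 by limma), or with memory 9 as the lone memory array, which is then assumed to vary like the other groups, by 0.76, adjusted p = 0.0686. Among the beta-ring genes that do not cut, Psmb1, Psmb2 and Psmb4 were higher in Tpm than in naive cells and all 4, with Psmb3, were higher in Teff. The shares of all genes higher in these comparisons were 16.6% and 23.1%. Psmb3 differed between Tpm and naive cells by 0.40 (adjusted p = 0.0600). Psmb2 had 12.43, 12.16, 12.21 and 12.19 on the Tpm arrays, 12.15, 12.17, 12.32, 12.52 and 12.40 on the Teff arrays, 11.46, 11.47 and 10.98 on the memory arrays and 11.51, 11.83, 11.34, 11.61 and 11.43 on the naive arrays. Tpm and Teff arrays were all above the memory and naive arrays. Tpm exceeded naive cells in Psmb2 by 0.70 (adjusted p = 0.00228) and memory cells by 0.94 (adjusted p = 0.000713), while memory cells fell by 1.01 relative to Teff (adjusted p = 0.000101).

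Of the 3 tested chaperones that build the core, Psmg1 and Psmg3 were called higher in both Tpm and Teff than in naive cells, and Psmg2 in Teff. Over all genes, 16.6% were called higher in Tpm and 23.1% in Teff. Psmg1 (PAC1), which with Psmg2 holds the first alpha subunits together, had 8.17, 7.69, 7.63 and 7.72 on the Tpm arrays, 8.66, 8.37, 8.51, 8.43 and 8.69 on the Teff arrays, 6.76, 6.74 and 6.77 on the memory arrays and 7.26, 7.48, 7.01, 7.29 and 6.65 on the naive arrays. All Teff arrays lay above all Tpm arrays, all Tpm arrays lay above all naive arrays, and the 3 memory arrays lay close together at the low end. Teff exceeded naive cells by 1.39 (SE 0.16, adjusted p = 1.58e-06 by limma), and Tpm exceeded them by 0.66 (adjusted p = 0.00752). Tpm fell by 0.73 relative to Teff (SE 0.17, adjusted p = 0.00333) and exceeded memory cells by 1.05 (adjusted p = 0.000770). Memory cells fell by 1.77 relative to Teff (adjusted p = 6.31e-07).

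Psmg3 (PAC3), another chaperone of the alpha ring, had 8.06, 7.32, 7.59 and 7.58 on the Tpm arrays, 7.06, 6.94, 7.34, 7.51 and 7.69 on the Teff arrays, 7.35, 7.82 and 6.96 on the memory arrays and 5.77, 6.92, 6.27, 6.75 and 6.46 on the naive arrays. The naive arrays were the lowest, and the other groups overlapped. Tpm exceeded naive cells by 1.20 (SE 0.25, 2.30-fold, adjusted p = 0.00131 by limma) and Teff exceeded them by 0.87 (adjusted p = 0.00495). Memory cells exceeded naive cells by 0.94 (adjusted p = 0.0167), which fell short of the test without memory 5 (0.73, adjusted p = 0.107), without both dim memory arrays (0.54, adjusted p = 0.452), with array weights (0.89, adjusted p = 0.0876) and with median scaling (0.65, adjusted p = 0.0782). Psmg2 (PAC2) was higher in Teff than in naive cells by 0.56 (adjusted p = 0.0268), a call lost with median scaling (0.54, adjusted p = 0.0647), with the mean of kept probes (0.44, adjusted p = 0.150) and without naive 2, 12 or 13 or Teff 10 or 17 (0.49 to 0.53, adjusted p 0.0555 to 0.0714), and differed between Tpm and naive cells by 0.38 (adjusted p = 0.198). The single Psmg4 probe was above background on 2 arrays.

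**Figure D4:**
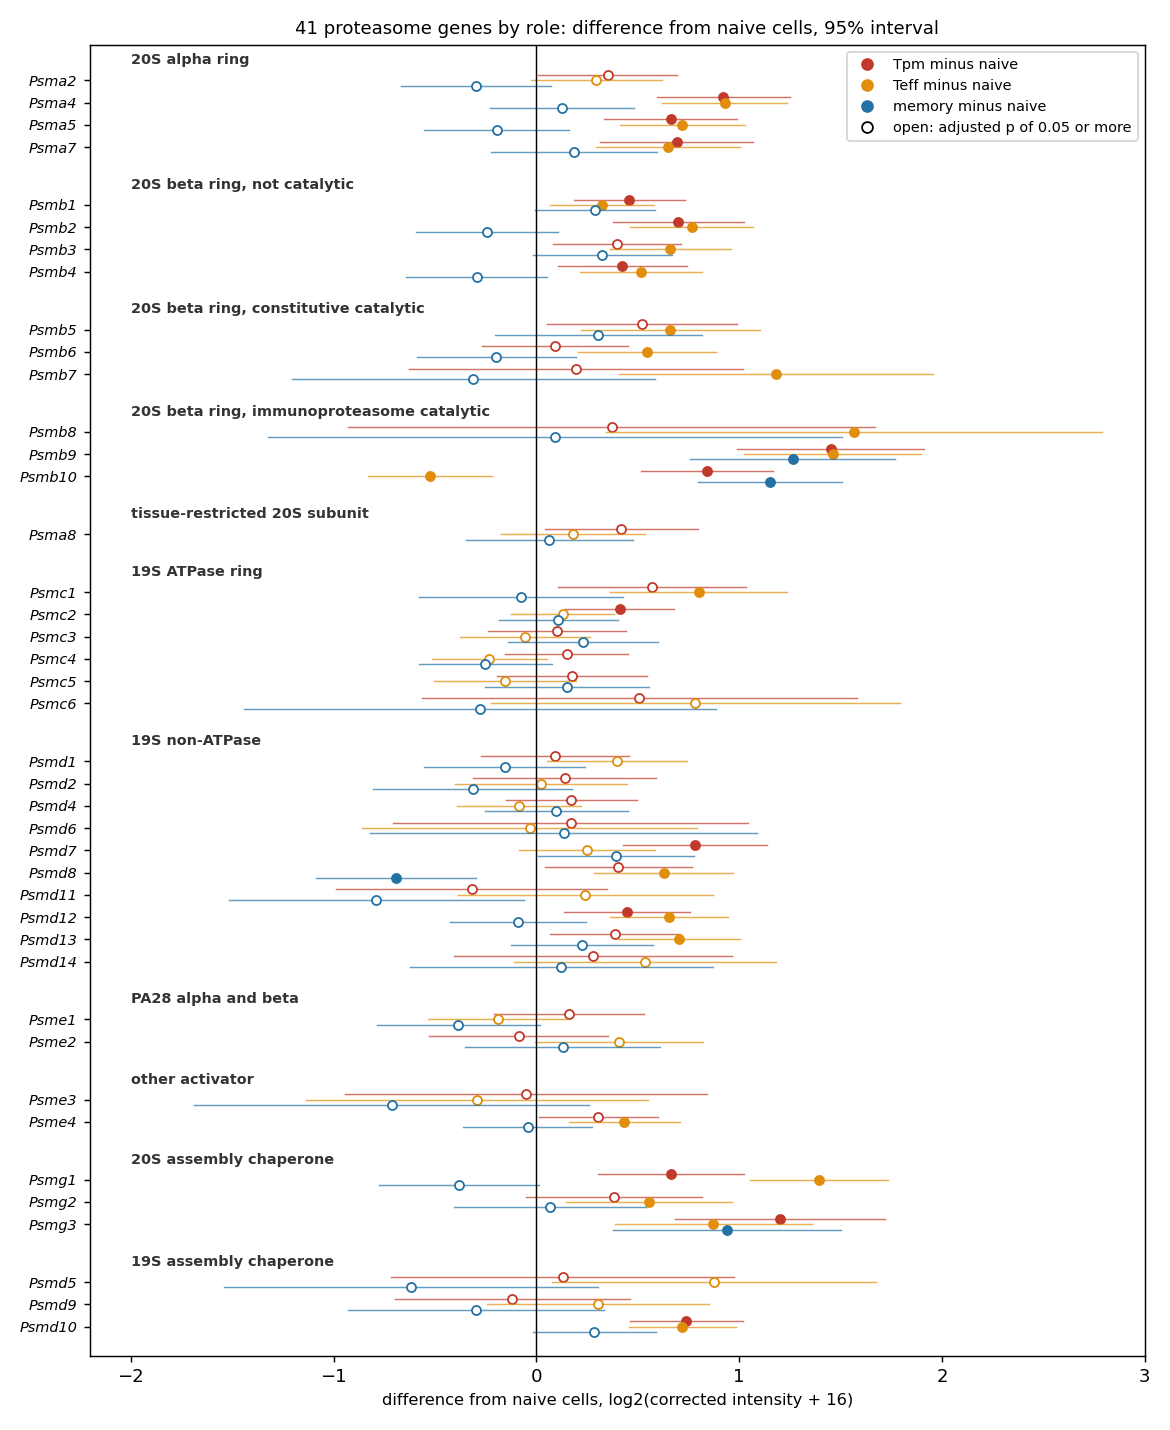
Points are differences from naive cells on the log2 scale for each of the 41 tested genes, in blocks by role, with 95% intervals from limma, for Tpm (red), Teff (orange) and memory cells (blue). Filled points passed an adjusted p of 0.05. Apart from Psmb10 in Teff, all tested core-ring genes lie right of 0 in Tpm and Teff, and Psmb10 is the one filled Teff point left of 0.

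In the 19S cap, the counts of genes called higher than in naive cells were near the share over all genes, 16.6% in Tpm and 23.1% in Teff. Of its 6 ATPase genes, which unfold substrates, 1 was higher in Tpm than in naive cells (Psmc2, 0.41) and 1 in Teff than in naive cells (Psmc1, 0.80), and none was lower in either. Of 10 other tested cap genes, 2 were higher in Tpm than in naive cells (Psmd7 and Psmd12) and 3 in Teff (Psmd8, Psmd12 and Psmd13). Of the 3 cap chaperones, Psmd10 (gankyrin) was higher in Tpm by 0.74 and in Teff by 0.72.

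Psmd8, a cap subunit, was low in memory cells. It had 9.77, 10.39, 10.06 and 10.40 on the Tpm arrays, 9.94, 10.48, 10.59, 10.47 and 10.44 on the Teff arrays, 9.04, 8.88 and 9.27 on the memory arrays and 9.77, 9.91, 9.77, 9.77 and 9.54 on the naive arrays. Every memory array was below every other array. Memory cells fell by 0.69 relative to naive cells (SE 0.19, adjusted p = 0.0126 by limma), a call lost without memory 5 (-0.60, adjusted p = 0.0659), without both dim memory arrays (-0.49, adjusted p = 0.325) and with array weights (-0.65, adjusted p = 0.0836). Tpm exceeded memory cells by 1.10 (adjusted p = 0.000530), or with memory 9 as the lone memory array by 0.89, adjusted p = 0.0509, and memory cells fell by 1.32 relative to Teff (adjusted p = 1.99e-05). Teff exceeded naive cells by 0.63 (adjusted p = 0.00414), with median scaling by 0.49, adjusted p = 0.111. Tpm differed from naive cells by 0.40 (adjusted p = 0.0968), without Tpm 4 by 0.53, adjusted p = 0.0373.

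Psmd7, a cap subunit that pairs with the deubiquitinase Psmd14, had 10.68, 10.64, 10.11 and 10.12 on the Tpm arrays, 9.65, 9.95, 9.86, 9.99 and 9.82 on the Teff arrays, 9.79, 10.21 and 9.99 on the memory arrays and 9.70, 9.87, 9.32, 9.53 and 9.59 on the naive arrays. Tpm 4 and 7 were the highest of all arrays, and Tpm 14 and 15 lay above all Teff and naive arrays but below memory 5. Tpm exceeded naive cells by 0.78 (SE 0.17, adjusted p = 0.00195 by limma) and Teff by 0.53 (SE 0.17, adjusted p = 0.0225). The difference from Teff was lost without Tpm 4 (0.43, adjusted p = 0.0885), without Teff 6 (0.48, adjusted p = 0.0567), without Tpm 7 (0.45, adjusted p = 0.0807) and with the mean of kept probes (0.33, adjusted p = 0.129). Of its other probes, 1 gave -0.32 between Tpm and Teff and another gave -0.23 between Tpm and naive cells, and with the mean of its kept probes Tpm differed from naive cells by 0.40, adjusted p = 0.0702.

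Psmd5, a chaperone of the cap's base, was dim, with 14 arrays above background. It had 6.20, 4.26, 6.13 and 6.51 on the Tpm arrays, 6.10, 6.43, 6.54, 6.61 and 6.91 on the Teff arrays, 4.55, 4.51 and 6.01 on the memory arrays and 5.75, 4.88, 6.01, 5.80 and 5.78 on the naive arrays. Tpm 7, memory 3 and memory 5 were at background level, and all 5 Teff arrays were above memory 9. Memory cells fell by 1.50 relative to Teff (adjusted p = 0.0106 by limma), a call lost without memory 3 (-1.28, adjusted p = 0.0553), without memory 5 (-1.27, adjusted p = 0.0595) and without both (-0.52, adjusted p = 0.590). Teff differed from naive cells by 0.88 (adjusted p = 0.0728), without Tpm 7 by 0.87, adjusted p = 0.0156 and without memory 9 by 0.88, adjusted p = 0.0455. Without background correction it was 0.40, adjusted p = 0.0434, and with an offset of 50 0.57, adjusted p = 0.0405. Without Tpm 7, Tpm exceeded memory cells by 1.26, adjusted p = 0.0171, against 0.75 with it (adjusted p = 0.257).

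The remaining activators gave few calls. Psme3 (PA28 gamma), a nuclear activator, ranged from 8.55 to 9.90 in Tpm, 7.81 to 9.37 in Teff, 7.31 to 9.61 in memory and 8.64 to 9.65 in naive arrays, with no call between groups by limma. Memory cells differed from naive cells by -0.71 (adjusted p = 0.298), and with median scaling by -1.14, adjusted p = 0.0436. Memory 9 was the lowest of all 17 arrays, and a fit with it as the lone memory array gave -1.88. Psme4 (PA200) was higher in Teff than in naive cells by 0.43 (adjusted p = 0.0117) on its brighter probe and differed by -0.11 on the other. That other probe was near background, above it on 10 of 17 arrays, with a mean non-normalized signal of 108 against 1318. Median scaling ended the call (0.29, adjusted p = 0.296), as did the mean of its kept probes (0.16, adjusted p = 0.445). Memory cells fell by 0.48 relative to Teff (adjusted p = 0.0170), a call lost without memory 3 (-0.44, adjusted p = 0.0576), without memory 5 (-0.41, adjusted p = 0.0748), without both (-0.26, adjusted p = 0.431), with the mean of kept probes (-0.33, adjusted p = 0.157) and with array weights (-0.46, adjusted p = 0.0695).

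Psma8, an alpha-ring form known from testis, was above background on 3 of 4 Tpm arrays, 1 of 5 Teff arrays and no memory or naive array. Its values were 4.21, 4.89, 4.91 and 4.99 on the Tpm arrays, 4.33, 4.43, 4.40, 4.49 and 4.90 on the Teff arrays, 4.21, 4.29 and 4.69 on the memory arrays and 4.25, 4.46, 4.34, 4.38 and 4.23 on the naive arrays. Tpm 4 was as low as the lowest memory array, and the other Tpm arrays were matched by Teff 17. The probe passed the filter through the Tpm arrays, so no test is given, though the gene is among the 41 counted above. Psmb11, the beta subunit of thymic cortical epithelium, was above background on no array.

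Genes that work with the proteasome gave few calls between Tpm and naive cells and between Tpm and Teff. Of 31 such genes, 17 were tested: Tpm against naive cells gave 1 higher and 1 lower, 2 were higher and 2 lower in Tpm relative to Teff, and 5 were higher and 2 lower in Teff than in naive cells. Of all genes, 16.6% were higher and 9.46% lower in the first comparison, 15.8% and 13.6% in the second, and 23.1% and 19.9% in the third. The median of the 17 was 0.06, -0.06 and 0.00 in these comparisons. Pomp, the maturation chaperone that incorporates the catalytic subunits, had 12.00, 11.70, 11.53 and 11.84 on the Tpm arrays, 11.51, 11.49, 11.43, 11.62 and 11.85 on the Teff arrays, 10.98, 11.04 and 10.89 on the memory arrays and 10.84, 10.97, 10.64, 11.03 and 10.78 on the naive arrays. All Tpm and Teff arrays lay above all memory and naive arrays. Tpm exceeded naive cells by 0.92 (SE 0.14, adjusted p = 0.000121 by limma) and memory cells by 0.80 (adjusted p = 0.00162), and Teff exceeded naive cells by 0.73 (adjusted p = 0.000254).

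Nfe2l1 (NRF1), the transcription factor known to raise proteasome genes when proteasome activity drops, was higher in Teff than in naive cells by 0.76 (adjusted p = 0.000408 by limma). In Tpm it differed from naive cells by 0.07 (adjusted p = 0.811) and fell by 0.69 relative to Teff (adjusted p = 0.00267). Zfand2a, a heat-shock and arsenite-induced protein that binds proteasomes, differed from naive cells by -2.49 in Tpm and by -3.31 in Teff (adjusted p = 2.53e-08 and 9.15e-11). Ublcp1, a nuclear phosphatase that acts on the cap, was higher in Tpm than in Teff by 1.56 (adjusted p = 6.34e-06). Ecpas, a proteasome scaffold, was higher in Teff than in naive cells by 0.83 (adjusted p = 0.0101).

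Genes of interferon-gamma signalling and class I presentation, the setting in which the immunoproteasome is known, were called in both directions against naive cells. Of 20, 18 were tested: Tpm against naive cells gave 5 higher and 3 lower, 6 were higher and none lower in Tpm than in Teff, and 3 were higher and 5 lower in Teff than in naive cells. The shares over all genes are those given for the genes that work with the proteasome. The medians of the 18 were 0.51, 0.41 and -0.31. Irf8, a transcription factor of the interferon regulatory family, was higher than in naive cells by 3.20 in Tpm and by 3.79 in Teff (adjusted p = 1.20e-05 and 2.47e-07 by limma). The receptor subunit gene Ifngr2 differed from naive cells by -1.66 in Tpm and by -2.17 in Teff (adjusted p = 0.00217 and 4.79e-05).

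Nlrc5, the transactivator of class I genes, was higher in Tpm than in Teff by 1.40 (adjusted p = 0.00100 by limma), and its values were 10.60, 10.25, 10.61 and 10.52 on the Tpm arrays, 9.71, 9.40, 9.31, 9.22 and 7.85 on the Teff arrays, 11.28, 11.50 and 11.08 on the memory arrays and 9.81, 9.81, 10.01, 10.09 and 9.34 on the naive arrays. All Tpm arrays lay above all Teff and naive arrays and below all memory arrays. Irf1, the factor through which interferon-gamma is known to induce immunoproteasome genes, was higher in Tpm than in naive cells by 0.77 (adjusted p = 0.0306) and than in Teff by 1.02 (adjusted p = 0.00493), and differed between Teff and naive cells by -0.24 (adjusted p = 0.457). Tap1, named after its values were seen because it shares its start region with Psmb9, was higher in Teff than in naive cells by 1.29 (adjusted p = 0.00662), and its differences from naive cells were 0.82 in Tpm (adjusted p = 0.128) and 1.16 in memory cells (adjusted p = 0.0531).

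Cell-division genes moved with the groups. Of 12 tested, 10 were higher and 0 lower in Tpm relative to naive cells (16.6% and 9.46% of all genes), all 12 were lower in Tpm than in Teff (13.6%), and all 12 were higher in Teff than in naive cells (23.1%). Their summed linear intensity was 2497 to 8922 in Tpm, 17873 to 19565 in Teff, 304 to 1134 in memory and 866 to 1594 in naive arrays. Their part in the proteasome differences was not tested.

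The 2 matches that are no proteasome genes behaved differently from each other. Psmc3ip (HOP2), a cofactor of homologous recombination, had 7.16, 6.46, 6.69 and 6.46 on the Tpm arrays, 7.36, 7.81, 8.14, 7.96 and 8.09 on the Teff arrays, 5.84, 6.63 and 5.63 on the memory arrays and 5.89, 5.82, 5.79, 5.33 and 5.83 on the naive arrays. Every Teff array was above every other array, and all Tpm arrays exceeded all naive arrays. Tpm exceeded naive cells by 0.96 (adjusted p = 0.00391 by limma) and fell by 1.18 relative to Teff (adjusted p = 0.000642), and Teff exceeded naive cells by 2.14 (adjusted p = 2.62e-07). Psme3ip1, a partner of PA28 gamma, was higher in memory cells than in Teff by 0.83 (adjusted p = 0.0135) and was not called elsewhere.

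Many genes had more than 1 probe. Of 48 comparisons between a called gene and another kept probe of it, 45 had the same sign, and the 3 exceptions were those of Psmd7 and Psme4. Some of these other probes were near background, such as that of Psma5, above it on 3 of 17 arrays, and that of Psme4, on 10. The sign of such a probe says little. Arrays numbered 12 to 17 differed from those numbered 1 to 11 within groups: with the group in the fit, 4 of 41 proteasome genes (9.76%) and 792 of 10569 genes (7.49%) passed an adjusted p of 0.05. The 4 were Psmb7 (0.85), Psmc6 (-1.23), Psmd6 (-1.08) and Psmd14 (-0.84), higher or lower in numbers 12 to 17 as signed. The labels do not say what the numbers stand for, and memory cells have none above 9.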

How the data were processed

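Total RNA of 17 samples was measured on Illumina mouse arrays with 45281 probes, 1 array per sample. The values used are linear intensities from a deposited non-normalized table, without background subtraction per the file headers. The authors' processed table, also linear intensity, held the same probe order per array (Spearman correlation 1) and quantile-normalized values with a median of 97.8 per column, and served as an alternative. The scanner software is not given in the sources used here. Members and gene lists were chosen with earlier results of these data known.

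From the intensities, each array's background was taken as the mode of its signals, with an SD from the signals under the mode. Signals were corrected by normexp with an offset of 16, quantile normalized and put on the log2 scale. A probe was above background at a one-sided p of 0.01, and probes above it on at least 3 arrays were kept (20002). The platform annotation gave 34885 probes 1 symbol, 18 several and 10378 none. The probe with the highest mean non-normalized signal stood for each gene. limma 3.58.1 in R 4.3.3 fitted 1 coefficient per group over all 17 arrays, with Benjamini-Hochberg adjustment over 10569 genes per comparison, two-sided, after a test on simulated data. The arrays' number limits the precision.

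Genes were named by a rule: the immunoproteasome and PA28 genes, the catalytic subunits, activators, 20S chaperones and tissue-restricted subunits in any case, and in each comparison the 3 called members with the largest difference in each direction. For the partner and interferon lists it took the largest called difference each way in 3 comparisons, with Nfe2l1, Pomp and Irf1 among those named in any case. Alternatives changed the background correction, normalization, offset, filter, probe rule, array weights and the arrays used. The adjustment for sample numbers 12 to 17 was chosen after seeing the data. Figures were drawn with matplotlib.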

Additional observations from a re-analysis of the deposited data

Results flagged for a closer look

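Within groups of 4 or 5 arrays, single arrays stood far from the rest in 10 of 57 checks of the named members. The gap to the nearest array exceeded Dixon's 95% limit for the group's range, which chance passes in about 1 of 20 checks.

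Psmb8 was lowest on Teff 6 (9.54, next 9.95) and on naive 2 (6.40, next 8.59). Naive 2 was also lowest in its group for Psmb6 (9.93, next 10.33) and Psmd5 (4.88, next 5.75). Tpm 4 was highest in its group for Psmg1 (8.17, next 7.72) and lowest for Psma8 (4.21, next 4.89). Tpm 7 was lowest for Psmd5 (4.26, next 6.13). Among Teff, array 8 was lowest for Psme2 (4.40, next 5.07), array 6 was lowest for Psmd8 (9.94, next 10.44) and array 17 was highest for Psma8 (4.90, next 4.49). All values are log2 of corrected intensity plus 16.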

How the results depend on the processing

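Of the differences of 19 named genes, 40 were called and 74 were not. Among the 40, 22 were called in every one of 26 alternatives. The alternative with the authors' table gave the same counts and differences as that without background correction, so these are not separate checks. Among the 74, 23 were called in some alternative, and no called difference changed sign. No paired analysis was possible because the sample numbers run through all groups and no number is shared between groups.

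Counts of called genes moved as follows, with most smaller relative changes left out. Genes higher than in naive cells numbered 10 in Tpm and 16 in Teff with median scaling, and 18 and 23 without background correction. Genes higher in Tpm than in Teff numbered 4 without background correction, with the authors' table, with an offset of 50 and with no filter on dim probes. Genes lower in Tpm than in Teff numbered 2 without background correction, with the authors' table, with median scaling and with an offset of 50, 3 with the mean of kept probes and with the sample-number term, and 4 without both dim memory arrays. Genes higher in Tpm than in memory cells numbered 14 without background correction and with the authors' table, 22 with median scaling and 5 without both dim memory arrays. Between memory and naive cells, none was higher and 9 were lower with median scaling, and none was lower with array weights. Between memory cells and Teff, 10 were lower without both dim memory arrays. Leaving out 1 array at a time gave 1 to 3 genes higher and 1 to 3 lower in Tpm than in Teff, and 0 to 2 lower in memory than in naive cells. 1 gene was higher in Tpm than in Teff without Tpm 4, Teff 6 or Tpm 7, and none was lower in memory than in naive cells without memory 5.

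For the catalytic pairs, median scaling gave -1.05 (adjusted p = 0.0714) for Psmb8 over Psmb5 between Tpm and Teff, 0.87 (adjusted p = 0.0612) for the same pair between Teff and naive cells, and 1.41 (adjusted p = 0.0612) for Psmb10 over Psmb7 between memory and naive cells, all exact permutation tests. The mean of kept probes gave -0.58 and 0.63 for the first pair. Without both dim memory arrays the values were -1.07 and 0.91 for that pair, and for memory against naive cells 1.51 for Psmb9 over Psmb6 and 1.98 for Psmb10 over Psmb7, where 1 memory array allows no p under the threshold.

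With 1 array left out at a time, Psmb8 over Psmb5 ranged from -1.38 to -0.31 between Tpm and Teff and from 0.52 to 1.13 between Teff and naive cells. Psmb9 over Psmb6 ranged from 1.14 to 1.57 between Tpm and naive cells, from 0.81 to 1.02 between Teff and naive cells and from 1.26 to 1.68 between memory and naive cells. Psmb10 over Psmb7 ranged from 1.92 to 2.68 between Tpm and Teff, from -1.99 to -1.53 between Teff and naive cells and from 1.21 to 1.94 between memory and naive cells. Fewer arrays raise the smallest p these tests can give. The cause of the other changes was not tested. Near background, as for Psme2, Psma8, Psmd2 and Psmd5, intensities limit what a difference can show.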
